A study of Mus musculus with 2 samples.

Results

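The interferon-inducible GTPases are a family of large GTP-binding proteins that cells make after exposure to interferons. The 10 genes described here, out of 28692 genes in the deposited matrices, were 6 guanylate-binding proteins (Gbp2, Gbp3, Gbp4, Gbp5, Gbp6 and Gbp7) and 4 immunity-related GTPases (Iigp1, Igtp, Irgm1 and Irgm2), chosen by gene symbol. They were measured by single-cell RNA sequencing in mesenchymal stromal cells of intestinal grafts. Fetal intestine of EYFP (C57BL/6) mice, which express a yellow fluorescent protein and came from EYFP males and C57BL/6Nrj females, had been placed beneath the capsule of the kidney of wild type adults and recovered 4 weeks later, and graft-derived stromal cells were sorted as live YFP+ Itgb1+ cells after exclusion of haematopoietic (CD45, Ter119), endothelial (CD31), epithelial (EpCAM), glial (L1CAM) and BP3+ cells. There was 1 library of large intestinal (LI) grafts and 1 of small intestinal (SI) grafts. The paper describes its sequenced colonic graft cells as pooled from a small number of grafts and does not state this for SI grafts. The libraries carry no replicate check, and no test between them was made. The labels name no infection and no interferon treatment, no ungrafted control was analysed here, and both groups share the strain, the graft site and the time.

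Both subfamilies are best known from cell-autonomous defence against intracellular pathogens. Interferon-γ, made mainly by T cells and NK cells, binds the receptor Ifngr1/Ifngr2 and signals through the kinases Jak1 and Jak2, and many of its target genes carry gamma-activated sequences (GAS) in their promoters. Type I interferon acts through the receptor Ifnar1/Ifnar2, and its targets carry interferon-stimulated response elements (ISRE), to which Irf1 also binds. Guanylate-binding proteins coat pathogen vacuoles and cytosolic bacteria. Iigp1 (Irga6) acts at the vacuole membrane as an effector. Irgm1, Igtp (Irgm3) and Irgm2 are regulators that protect the membranes of the cell itself from the effectors. Outside immune cells, fibroblasts, endothelial cells and epithelial cells also make them.

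The LI library held 11568 barcodes and 63348069 unique molecular identifiers (UMIs), and the SI library 9631 barcodes and 54918006 UMIs. Barcodes with 500 or more genes and no more than 10% of UMIs from mitochondrial genes were kept, which left 9873 LI cells (median 5288 UMIs) and 7910 SI cells (median 5682 UMIs). The libraries shared 26 barcode sequences. Cells were assigned to classes by the number of marker genes detected, and a cell was called a fibroblast (FB) with at least 5 of 7 markers such as Col1a1, Dcn and Pdgfra. This gave 7488 LI and 5214 SI fibroblasts, of which 466 and 162 stood at the minimum number of markers. Within fibroblasts the gates of the PDGFRAhi, CD81, Pi16 and Fgfr2 subsets were used. Fibroblasts that met more than 1 of these gates are called mixed and those that met none are called other. Pericytes, smooth muscle cells (SMC) and interstitial cells of Cajal (ICC) were gated outside fibroblasts. Of their 10 leading genes, the named subsets and mural classes held 2 to 5 of their own markers. LI and SI CD81 FB, LI pericytes and SI ICC held 2, and SI PDGFRAhi and SI Pi16 FB also held 1 marker of another class. Igkc, Igha and Jchain, which are antibody transcripts of plasma cells, led SI Fgfr2 FB. Few cells carried them, since the 5076 UMIs of Igkc in SI fibroblasts lay in 101 of 5214 cells (1.94%). Between 18.2% and 62.5% of the cells of a subset or mural class stood at its minimum number of markers.

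The genes lie on 4 chromosomes of the mouse genome (GRCm38). Gbp2, Gbp3, Gbp5 and Gbp7 lie in 1 cluster on chromosome 3, all on the plus strand, with Gbp5 at chr3:142493978-142522344 and Gbp2 at chr3:142620602-142638008 as its outer members. Gbp4 (chr5:105115767-105139586) and Gbp6 (chr5:105270702-105293698) lie on the minus strand of chromosome 5, Igtp (chr11:58199556-58207591) and Irgm2 (chr11:58199618-58222782) overlap on the plus strand of chromosome 11 and Irgm1 (chr11:48861968-48871683) lies on the minus strand of the same chromosome. Counts are uncertain where genes share a strand and a span. This holds for Igtp with Irgm2, for Gbp4 with Gbp8 and Gbp9, and for Gbp6, whose symbol has 2 features in the files, of which 1 held 0 UMIs in both libraries and was summed with the other.

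The promoters of the members are shown before their levels. No link between promoter motifs and detection in the same cells was tested. The RefSeq promoter table of GRCm38.p6 (300 bases, from 250 before to 50 after the start) held 7 of the 10 genes; Gbp4, Gbp6 and Iigp1 are named only. The stretches below run 5′ to 3′ on the strand of the gene, and capitals mark matches to a GAS (TTCNNNGAA) or to the core of an ISRE (GAAANNGAAA, on either strand) and overlapping matches are joined. They lie at chr3:142620543-142620621 (Gbp2), chr3:142559924-142560043 (Gbp3), chr3:142496754-142496893 (Gbp5), chr3:142530216-142530335 (Gbp7), chr11:58199436-58199555 (Igtp), chr11:48871428-48871457 (Irgm1, minus strand) and chr11:58214857-58214976 (Irgm2). The annotation calls all 30 bases of the Irgm1 stretch, 20 bases of the Gbp2 stretch and 18 of the Gbp3 stretch exon.
Gbp2: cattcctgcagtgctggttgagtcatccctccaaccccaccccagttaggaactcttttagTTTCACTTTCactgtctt
Gbp3: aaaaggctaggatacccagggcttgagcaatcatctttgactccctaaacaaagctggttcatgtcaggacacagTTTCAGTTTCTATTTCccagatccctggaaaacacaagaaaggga
Gbp5: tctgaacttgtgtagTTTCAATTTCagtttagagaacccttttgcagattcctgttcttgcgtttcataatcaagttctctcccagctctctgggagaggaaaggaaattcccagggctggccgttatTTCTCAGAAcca
Gbp7: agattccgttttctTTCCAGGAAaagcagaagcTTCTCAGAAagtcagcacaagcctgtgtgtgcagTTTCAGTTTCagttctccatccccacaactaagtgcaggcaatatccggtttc
Igtp: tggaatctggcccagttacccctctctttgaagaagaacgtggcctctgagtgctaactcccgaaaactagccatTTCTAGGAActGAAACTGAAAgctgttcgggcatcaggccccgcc
Irgm1: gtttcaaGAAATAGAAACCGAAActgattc
Irgm2: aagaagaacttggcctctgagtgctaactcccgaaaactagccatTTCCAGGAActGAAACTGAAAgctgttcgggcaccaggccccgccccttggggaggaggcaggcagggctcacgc

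The table lists 8 promoters for these 7 genes, since Gbp3 has a second one, which held neither motif and is not shown. An ISRE core occurred in 7 of the 8, against 3.44% of the 32851 promoters in the table. A GAS occurred in 4 of the 8 (Gbp5, Gbp7, Igtp and Irgm2), against 8.30%, and these 4 held both motifs, as did 0.454% of all promoters. In Igtp and Irgm2 the GAS and the ISRE core stand 2 bases apart, and when the stretches are aligned with a shift of 30 bases, 87 of 90 bases are the same (96.7%). These are matches of letters in a window, with no binding measured.

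Fibroblasts of the SI grafts held more of every member than fibroblasts of the LI grafts. Summed over the 10 genes, the pooled level was 764 UMIs of these genes per 1000000 UMIs of the cells (CPM) in LI fibroblasts, with a 95% interval of 756 to 772, and 1738 CPM in SI fibroblasts, with an interval of 1724 to 1752, a 2.27-fold difference (2.24 to 2.30). All intervals cover counting error only, and folds are ratios of CPM + 1. The Gbp sum differed 2.56-fold (246 and 631 CPM) and the sum of the immunity-related GTPases 2.13-fold (518 and 1107 CPM). Of the 10 members 9 were at least 2-fold higher in SI fibroblasts, where 1.56% of the genes with at least 10 CPM in either group were. The median log2 difference of the members was 1.26, and that of all genes was -0.00084. The 7 pericyte markers moved with this contrast, at 194 CPM in LI and 716 CPM in SI fibroblasts, with all 7 detected in each. In the 4187 LI and 1377 SI fibroblasts without a UMI of these markers, a subset chosen after the data were seen, the GTPase sums were 774 and 1768 CPM, and the log2 ratio of LI over SI was -1.19, compared with -1.18 in all fibroblasts.

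**Figure D1:**
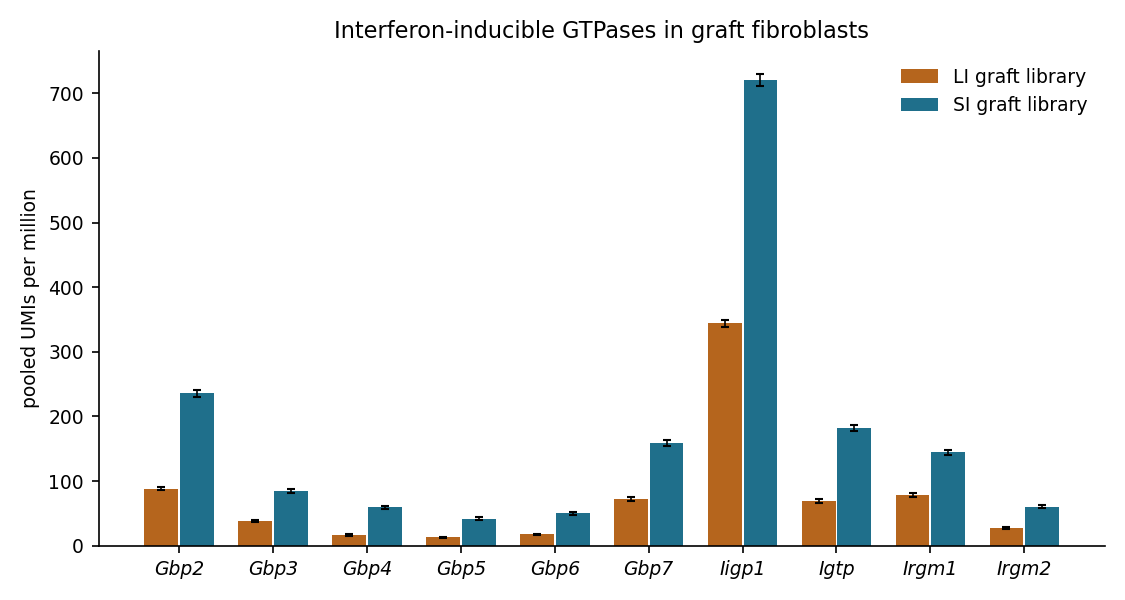
Pooled CPM of the 10 GTPases (horizontal axis) in LI and SI graft fibroblasts (bars, 1 library each), with error bars for the 95% Poisson interval of the counts. The SI bar is the taller one for every gene, and Iigp1 is the highest gene in both libraries, at 344 and 720 CPM.

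Among the guanylate-binding proteins, Gbp2 and Gbp7 were the most abundant. A UMI marks 1 transcript end, so levels of different genes can be set side by side without dividing by length. Gbp2 stood at 88.3 CPM in LI and 236 CPM in SI fibroblasts (2.65-fold, 2.56 to 2.75). Gbp7 stood at 72.2 and 159 CPM (2.19-fold, 2.10 to 2.28). Gbp3 followed with 38.7 and 85.2 CPM (2.17-fold, 2.05 to 2.30). With male and female cells pooled, the 3 remaining members were rarer and differed most. Gbp4 stood at 16.2 and 59.4 CPM (3.51-fold, 3.24 to 3.81), the largest difference of the family. Within a sex, called by the genes named below, its difference was smaller. Gbp4 stood at 7.74 and 20.2 CPM in female and at 50.9 and 113 CPM in male LI and SI fibroblasts. In male fibroblasts Gbp5 differed more, at 21.8 and 63.7 CPM. Gbp5, which is known for its part in inflammasome activation, stood at 13.0 and 41.5 CPM (3.03-fold, 2.77 to 3.32), and Gbp6 at 17.6 and 50.2 CPM (2.76-fold, 2.55 to 2.99).

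Iigp1, the effector (chr18:60376027-60392634), was the most abundant member and made up 45.0% of the family's UMIs in LI fibroblasts and 41.4% in SI fibroblasts. Its level was 344 CPM in LI and 720 CPM in SI fibroblasts (2.09-fold, 2.05 to 2.13). Of the regulators, Igtp differed 2.61-fold (69.1 and 182 CPM; 2.50 to 2.73) and Irgm2 2.19-fold (26.9 and 60.1 CPM; 2.05 to 2.35). Irgm1 was the 1 member below 2-fold, at 78.5 and 144 CPM (1.83-fold, 1.75 to 1.91). With the sexes pooled, Irgm1 was therefore above Igtp in LI fibroblasts and below it in SI fibroblasts. Within a sex, called by the genes named below, the order was the same in both libraries. Igtp was above Irgm1 in male fibroblasts (182 and 125 CPM in LI, 306 and 197 CPM in SI). It was below Irgm1 in female fibroblasts (44.3 and 70.4 CPM in LI, 87.6 and 109 CPM in SI). In order of pooled level, Gbp2, Irgm1, Gbp7 and Igtp stood between 69.1 and 88.3 CPM in LI fibroblasts. The intervals of Gbp7 (69.7 to 74.6) and Igtp (66.7 to 71.5) overlapped there, as did those of Gbp6 (16.4 to 18.8) and Gbp4 (15.1 to 17.4). In female LI fibroblasts the order was Irgm1 and Gbp7, whose intervals overlapped, then Gbp2 and Igtp. In male LI fibroblasts it was Gbp2, Igtp, Irgm1 and Gbp7. In SI fibroblasts Irgm2 (57.5 to 62.8) and Gbp4 (56.8 to 62.1) could not be told apart.

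The share of fibroblasts with a UMI was compared after every cell was thinned to 2000 UMIs, which left out 496 LI and 334 SI fibroblasts with fewer. Iigp1 was then detected in 28.9% of LI and 48.3% of SI fibroblasts, and in 43.7% and 65.0% before thinning. Gbp2 was detected in 10.8% and 23.1% (24.1% and 40.7% before thinning), and Gbp4 in 2.39% and 7.56% (5.50% and 15.3%). The other 7 members were between 2.37% and 12.0% in LI and between 6.64% and 22.3% in SI fibroblasts, each higher in SI. No cell class here is known to lack these genes, so the share that free RNA adds was not measured.

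Among the 9 gated stromal classes, with male and female cells pooled, pericytes held the most of the family in both libraries, and Pi16 FB and ICC the least. The share of cells called male, by the genes named below, differed between classes, from 3.22% in Fgfr2 FB to 15.1% in Pi16 FB in LI grafts and from 13.5% in other FB to 35.6% in Pi16 FB in SI grafts. Within a sex, pericytes were the highest class in female LI and male SI cells but not in male LI or female SI cells. In LI grafts the summed level was 1152 CPM in pericytes, 967 in Fgfr2 FB, 950 in PDGFRAhi FB, 926 in mixed FB, 695 in other FB, 684 in CD81 FB, 648 in SMC, 596 in ICC and 541 in Pi16 FB. In SI grafts it was 2874 CPM in pericytes, 2137 in Fgfr2 FB, 2064 in SMC, 1903 in mixed FB, 1744 in other FB, 1679 in PDGFRAhi FB, 1639 in CD81 FB, 1242 in Pi16 FB and 599 in ICC. Fgfr2, PDGFRAhi and mixed FB could not be told apart by their intervals in LI grafts, nor could neighbours among other FB, CD81 FB, SMC, ICC and Pi16 FB. In SI grafts the same held for Fgfr2 FB and SMC, for other and PDGFRAhi FB, and for PDGFRAhi and CD81 FB. With the sexes pooled, SMC stood below most fibroblast subsets in LI grafts and above most of them in SI grafts, but female SMC stood below female fibroblasts in both (447 and 606 CPM in LI, 832 and 1104 CPM in SI). With classes set by a mean z-score of the markers, LI SMC went from a log2 of -0.27 against the other stromal cells to 0.035. In Fgfr2 FB the SI value stands beside the antibody transcripts named above, and their part in it was not tested.

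**Figure D2:**
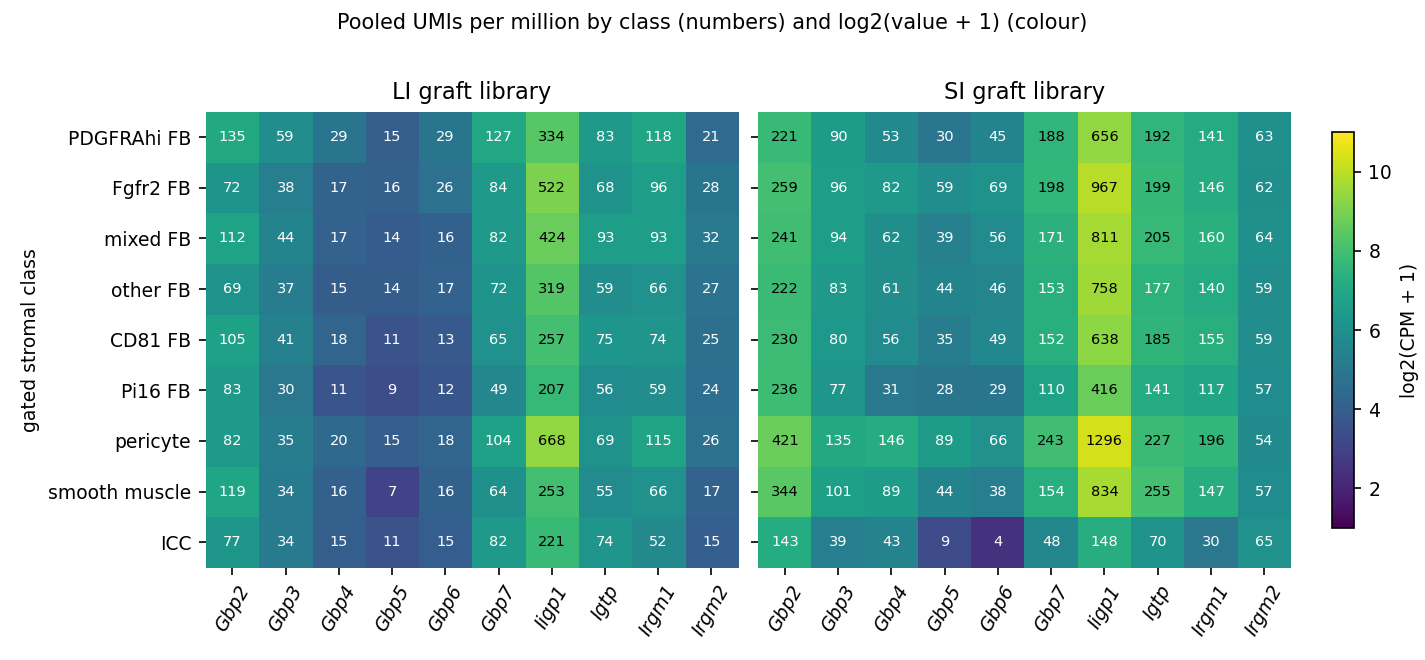
Pooled CPM of each GTPase (columns) in each gated stromal class (rows) of the LI and SI graft libraries, printed in the cells, with colour for log2(CPM + 1). Pericytes and Fgfr2 FB are brightest for Iigp1 in both libraries (668 and 522 CPM in LI, 1296 and 967 CPM in SI), and the ICC of the SI library, which are 44 cells, are the darkest class there.

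SI grafts were higher in 8 of these 9 classes, from 1.77-fold in PDGFRAhi FB (1.65 to 1.89) to 3.18-fold in SMC (3.03 to 3.34). In SMC 10 of 10 members were at least 2-fold higher in SI, against 2.82% of all genes, and in pericytes 8 of 10, against 1.87%. The pericyte sum differed 2.49-fold (2.40 to 2.59). Male cells were 5.23% of LI and 27.3% of SI SMC, and within female cells the SMC sum differed 1.86-fold (832 against 447 CPM) and the pericyte sum 1.02-fold (0.96 to 1.08). Within male cells these were 2.79-fold (2.48 to 3.15) and 4.03-fold (3.58 to 4.54). ICC, the pacemaker cells of the gut wall, were the class with no difference beyond counting error, at 1.01-fold (0.84 to 1.20), with 319 LI cells and 44 SI cells. In SI ICC, Irgm1 stood at 30.4 CPM, against 144 CPM in SI fibroblasts, whereas Irgm2 stood at 65.2 CPM, against 60.1.

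Iigp1 reached 668 CPM in LI pericytes and made up 58.0% of the family's UMIs there (56.2 to 59.7), compared with 45.0% in all LI fibroblasts and 54.0% in LI Fgfr2 FB (53.0 to 54.9), whereas Gbp2 stood at 81.9 CPM in LI pericytes and 88.3 CPM in LI fibroblasts. The sum in pericytes was 1.51-fold that of fibroblasts (1.45 to 1.56), with 0 of 10 members past 2-fold, where 7.89% of all genes were. In SI grafts it was 1.65-fold (1.62 to 1.69), with 2 of 10 members past 2-fold, where 8.33% of all genes were. Within a sex the ratio turned, at 1.88-fold in female LI, 0.75-fold in male LI, 1.05-fold in female SI and 1.73-fold in male SI cells. The 2 members past 2-fold in SI were Gbp4 (146 and 59.4 CPM) and Gbp5 (89.1 and 41.5 CPM). 

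Cells called male and cells called female occurred in both libraries. A cell was called male with a UMI of Ddx3y, Eif2s3y, Kdm5d or Uty and none of Xist, and female with Xist and none of these; 651 LI and 967 SI fibroblasts were left unclear. The labels tie no cell to a fetus or graft, so the sex of a cell and the graft it came from cannot be told apart. The cells of a sex may come from very few grafts. The summed level in LI fibroblasts was 1479 CPM in male and 606 CPM in female cells (2.44-fold, 2.38 to 2.50; 636 and 6201 cells). In SI fibroblasts it was 2573 CPM in male and 1104 CPM in female cells (2.33-fold, 2.29 to 2.37; 1215 and 3032 cells). Male cells were higher in every fibroblast class of both libraries, from 1.65-fold in SI PDGFRAhi FB to 3.60-fold in LI CD81 FB. LI PDGFRAhi FB held only 12 male cells. Of the 10 members 4 were at least 2-fold higher in male LI fibroblasts, where 4.76% of all genes were, and 6 in male SI fibroblasts, where 1.11% were.

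**Figure D3:**
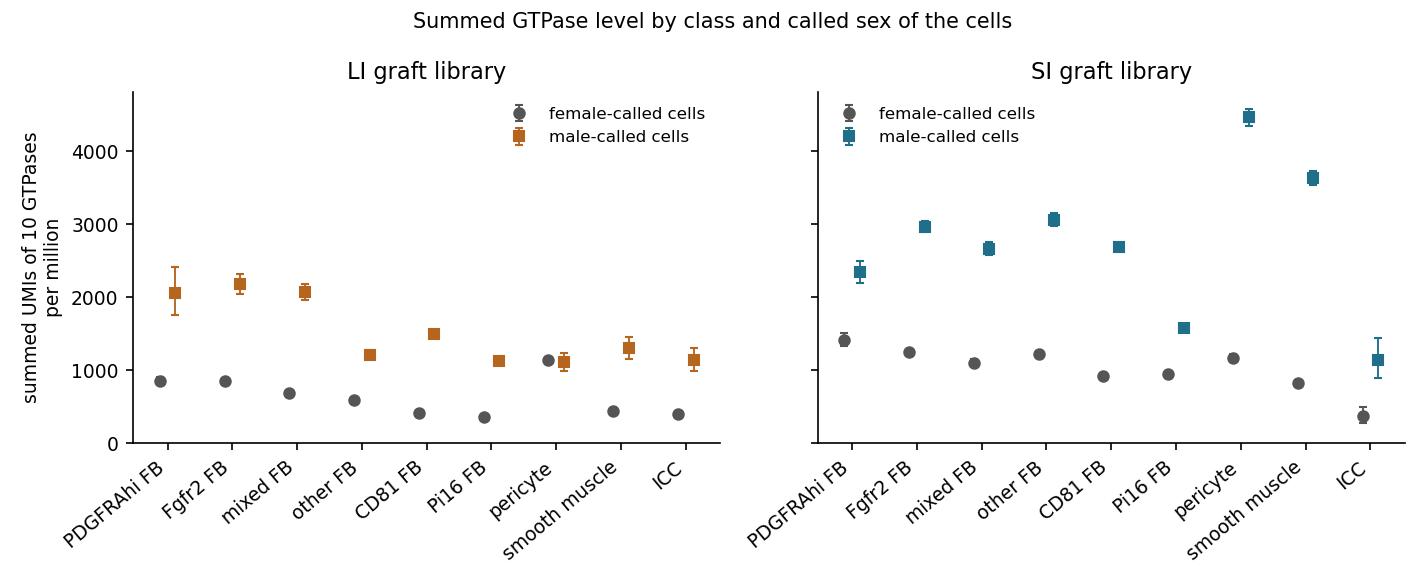
Summed level of the 10 GTPases in CPM (vertical axis) in female-called (grey circles) and male-called cells (coloured squares) of each gated class, for the LI and SI graft libraries, with 95% Poisson intervals of the counts. The male-called cells lie above the female-called cells in every class but the LI pericytes, where the values are 1108 and 1139 CPM. Male-called cells were few in LI PDGFRAhi FB (12), LI SMC (26) and SI ICC (9).

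The members did not move by the same factor. Gbp4 stood at 50.9 CPM in male and 7.74 CPM in female LI fibroblasts, and at 113 and 20.2 CPM in SI fibroblasts, which are log2 differences of 2.57 and 2.43. Igtp followed with log2 differences of 2.02 in LI (182 and 44.3 CPM) and 1.79 in SI (306 and 87.6 CPM), and Gbp2 with 1.75 (207 and 61.0 CPM) and 1.68 (396 and 123 CPM). Iigp1 differed by 1.34 in LI (680 and 267 CPM) and 1.07 in SI (1015 and 483 CPM). The 3 members that differed most were the same in both libraries. Gbp5 and Gbp6 differed by 0.84 and 0.86 in LI and by 1.24 and 1.11 in SI. Gbp7, Gbp3, Irgm2 and Irgm1 were nearer, between 0.44 and 0.82 in LI and between 0.71 and 0.93 in SI. The regulators Igtp and Irgm2 were thus among the most and among the least different members. Their counts are uncertain, since these genes overlap on the same strand, and the part of this in the contrast was not tested.

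**Figure D4:**
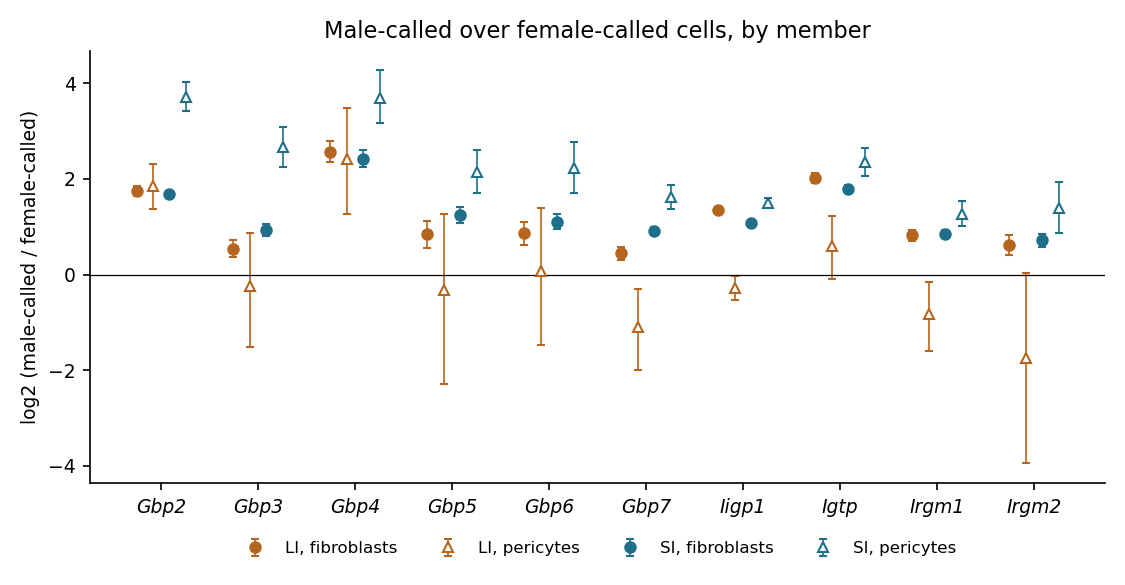
Log2 ratio of the level in male-called over female-called cells (vertical axis, pseudocount 1 CPM) for each GTPase (horizontal axis), in fibroblasts (filled) and pericytes (open) of the LI and SI graft libraries, with 95% counting intervals. SI pericytes lie highest, with Gbp2 at 3.72 and Gbp4 at 3.70, and LI pericytes, of which 42 were male, fall on both sides of 0.

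Several other measures moved with the called sex. Male fibroblasts were deeper, with a median of 8713.5 UMIs against 5185 in LI and 7915 against 5414 in SI. Their median mitochondrial share was lower, at 1.73% against 2.55% in LI and 1.94% against 2.22% in SI. Male LI fibroblasts also held less of the 7 fibroblast markers (28669 against 45775 CPM; 55248 against 54546 in SI), and all 7 were detected in each group. The pericyte markers summed to 285 CPM in male and 168 CPM in female LI fibroblasts and to 584 and 801 CPM in SI, and the smooth muscle markers to 171 and 97.0 CPM in LI and to 109 and 129.7 CPM in SI. Without fibroblasts holding a UMI of a pericyte marker, the log2 difference of the GTPase sum was 1.23 in LI and 1.25 in SI. In fibroblasts of 3000 to 8000 UMIs, a range chosen after the data were seen, the log2 difference of the sum fell from 1.29 to 0.93 in LI and from 1.22 to 0.74 in SI. Immune cells were few, with 82 in LI and 67 in SI, and the 8 immune markers summed to 17.7 CPM in male and 23.6 CPM in female LI fibroblasts and to 29.1 and 20.5 CPM in SI. Cd3e was at 0 in LI fibroblasts of both sexes and in female SI fibroblasts. The part of depth and of immune transcripts in the difference was not tested beyond these values.

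The share of male cells also differed between the libraries, with 8.49% of LI and 23.3% of SI fibroblasts called male. Within female fibroblasts SI was 1.82-fold higher than LI (1.79 to 1.86), with 3 of 10 members past 2-fold, where 1.28% of all genes were. Within male fibroblasts it was 1.74-fold higher (1.70 to 1.78), with 6 of 10 members past 2-fold, where 7.78% of all genes were. Both values lie below the 2.27-fold of all fibroblasts.

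The 193 male SI pericytes held 4463 CPM and the 309 female SI pericytes 1162 CPM, a 3.84-fold difference (3.64 to 4.05), with 10 of 10 members at least 2-fold higher in male cells, where 3.16% of all genes were. Gbp2 stood at 772 CPM in male and 57.9 CPM in female SI pericytes (13.1-fold, 10.6 to 16.4). The Gbp sum differed 6.66-fold (1845 and 276 CPM) and the sum of the immunity-related GTPases 2.95-fold (2619 and 886 CPM). In LI grafts the 42 male pericytes held 1108 CPM and the 402 female pericytes 1139 CPM (0.97-fold, 0.86 to 1.10), with 2 of 10 members at least 2-fold higher in male cells, where 8.16% of all genes were, and 2 of 10 at least 2-fold lower, where 18.0% were. The higher members were Gbp2 (215 and 58.8 CPM) and Gbp4 (45.2 and 7.65 CPM). The lower members were Gbp7 (49.0 and 105 CPM) and Irgm2 (7.54 and 27.7 CPM), the latter with an interval of 0.065-fold to 1.03-fold.

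In SI SMC the male cells held 3630 CPM and the female cells 832 CPM (4.36-fold, 4.14 to 4.60; 172 and 321 cells), with 10 of 10 members past 2-fold, where 2.90% of all genes were. In LI SMC the 26 male cells held 1299 CPM and the 427 female cells 447 CPM (2.90-fold, 2.55 to 3.30).

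Class II MHC genes, which present antigen to CD4+ T cells and are induced by interferon-γ in stromal cells, were detected together with higher GTPase levels. Fibroblasts with 2 or more UMIs of class II MHC genes held 1309 CPM in LI and 3588 CPM in SI grafts. Fibroblasts with none held 623 and 1157 CPM, which are log2 differences of 1.07 (1.04 to 1.10) in LI and 1.63 (1.61 to 1.66) in SI. In LI 4 of 10 members were past 2-fold, where 2.79% of all genes were, and in SI 10 of 10, where 1.90% were. The positive cells were deeper (median 8362 against 5093.5 UMIs in LI and 8102.5 against 5450 in SI), and 37.9% of them were male in LI and 47.4% in SI, against 3.59% and 17.3% of the cells with none. Their median mitochondrial share was 1.87% against 2.54% in LI and 1.87% against 2.25% in SI.

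Within a sex the direction was the same. Male SI fibroblasts with 2 or more class II UMIs held 4237 CPM and those with none 1330 CPM, and female SI fibroblasts held 1522 and 1054 CPM. In LI grafts the values were 1629 and 1278 CPM in male and 823 and 575 CPM in female fibroblasts. Among fibroblasts without a class II UMI, a comparison chosen after the data were seen, male cells were 2.22-fold higher than female cells in LI (2.12 to 2.33) but 1.26-fold in SI (1.22 to 1.30). In SI grafts the difference between the sexes was thus smaller among cells without class II transcripts.

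The members occurred together in single cells. After thinning to 2000 UMIs, 52.9% of LI and 73.0% of SI fibroblasts had a UMI of at least 1 member, 9.40% and 27.0% had at least 3 members, and 2.39% and 9.39% had at least 5. In LI grafts 7.61% of male and 1.60% of female fibroblasts had at least 5 members, and in SI grafts 16.6% and 4.51%. In SI pericytes this share was 29.6% of male and 2.35% of female cells. The family's UMIs were concentrated, with 52.7% of them in the top 10% of LI fibroblasts and 44.4% in the top 10% of SI fibroblasts, whereas 47.1% and 27.0% of fibroblasts held none.

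**Figure D5:**
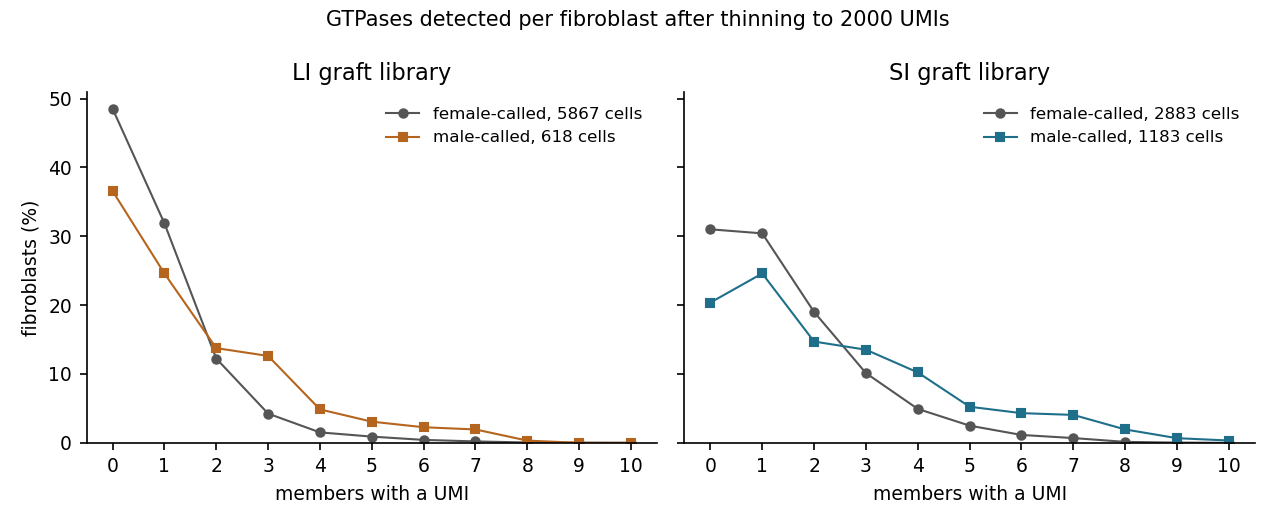
Share of fibroblasts in percent (vertical axis) by the number of the 10 GTPases with a UMI (horizontal axis) after thinning each cell to 2000 UMIs, for male-called and female-called cells of the LI and SI graft libraries. The male curves lie lower at 0 members and higher from 3 to 8 members, with 25.1% of male and 7.36% of female LI fibroblasts, and 40.3% and 19.6% of SI fibroblasts, at 3 or more.

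For each member, the level of the other 9 was set between fibroblasts with and without a UMI of it at this fixed depth. The other 9 were higher in the cells with a UMI for every member in both libraries, by log2 1.36 to 2.33 in LI and by 1.15 to 1.92 in SI. Both sexes and all fibroblast classes, whose levels differ, were pooled here, and no comparison was made within a sex or class. Cells with a UMI of Gbp4 stood highest, with 3350 against 665 CPM of the other members in LI (167 and 6825 cells) and 4874 against 1287 CPM in SI (369 and 4511 cells). Irgm2 marked the smallest difference, with 1713 against 665 CPM in LI and 3019 against 1361 CPM in SI.

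Across the 17 points given by the classes with at least 50 cells in each library, the genes whose level was most like the summed level included Tap1 (Pearson r 0.960), Batf2 (0.956), Ifi47 (0.950), Parp14 (0.938), Tgtp2 (0.938), Ccrl2 (0.931), Psmb9 (0.918), Gm4951 (0.917) and Ifih1 (0.916), out of 8390 genes. The points share 2 libraries, and the correlation holds the difference between them. Tap1 and Psmb9 belong to class I antigen processing, and Ifi47 and Tgtp2 are GTPases of the same family. The correlation of each member with the other 9 lay between 0.85 (Gbp2) and 0.96 (Gbp4, Gbp5 and Irgm1) over these points. Within the 9 LI points that of Gbp2 was 0.02, and within the 8 SI points that of Irgm2 was -0.28.

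The other genes of the pathway were taken from lists. Of 9 further GTPases with a feature in the files, 4 reached 10 CPM in fibroblasts of either library, and 4 of 4 were at least 2-fold higher in SI, where 1.56% of all genes were (Gbp8, Gbp9, Tgtp2 and Ifi47; Ifi47 stood at 60.8 CPM in LI and 162 CPM in SI). Of those that reached it in the comparison of the sexes, 3 of 5 were past 2-fold in male LI fibroblasts, where 4.76% of all genes were, and 5 of 6 in male SI fibroblasts, where 1.11% were. None of the 7 interferon ligands and inducers reached 10 CPM in fibroblasts. Ifng had 2 UMIs in the kept LI cells and 12 in the kept SI cells, of which 8 were in the 67 SI immune cells. Ifnb1, a type I interferon, had 15 UMIs in LI and 40 UMIs in SI fibroblasts, all of them in 1 cell of each library.

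Of 6 receptors and kinases that reached 10 CPM, 0 were at least 2-fold higher in SI than in LI fibroblasts, where 1.56% of all genes were. The same count was 0 in male LI and 0 in male SI fibroblasts, where 4.76% and 1.11% were. At such shares 0 of 6 says little about these genes. Ifngr1 stood at 96.8 CPM in LI and 96.6 CPM in SI fibroblasts, and Jak1 at 249 and 252 CPM. Ifngr2 was 74.0 CPM in male and 47.9 CPM in female LI fibroblasts, a log2 difference of 0.62 (0.47 to 0.77), and Jak2 was higher in male fibroblasts by log2 0.41 in LI and 0.43 in SI. Among the transcription factors, Irf1 stood at 314 CPM in LI and 613 CPM in SI fibroblasts, under 2-fold, with 280 and 326 CPM in male and female LI and 708 and 560.1 CPM in male and female SI fibroblasts. Of 4 inhibitors of the pathway, Socs3 was lower in male than in female LI fibroblasts (418 and 1462 CPM) but not in SI fibroblasts (1432 and 1294 CPM), and Socs1, which blocks Jak kinases, was higher in male SI fibroblasts (373 and 169 CPM). Socs1 was lower in male than in female LI fibroblasts (106 and 161 CPM), short of 2-fold.

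Of the targets led by interferon-γ, 5 of 6 were at least 2-fold higher in male LI fibroblasts, where 4.76% of all genes were, and 5 of 7 in male SI fibroblasts, where 1.11% were. Of the targets led by type I interferon, 2 of 9 and 0 of 8 were. Between the libraries 2 of 6 of the former and 0 of 8 of the latter were at least 2-fold higher in SI, where 1.56% of all genes were. Cxcl10, a chemokine that attracts T cells, stood at 507 CPM in LI and 1833 CPM in SI fibroblasts. Cd74, the class II invariant chain, stood at 828 and 51.3 CPM in male and female LI fibroblasts and at 659 and 75.5 CPM in male and female SI fibroblasts. Isg15, a target led by type I interferon, stood at 219 CPM in LI and 218 CPM in SI fibroblasts, and at 358 and 183 CPM in male and female LI and 284 and 179 CPM in male and female SI fibroblasts. Cd74, H2-Aa and H2-Ab1 were among the targets led by interferon-γ past 2-fold in male fibroblasts of both libraries. They are related class II genes, so the counts are not of independent genes. Irf1, which is also in the list of transcription factors, was not past 2-fold between the sexes in either library. The lists differ in size and level, and the difference between them was not tested.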

How the data were processed

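Gene by cell matrices of UMI counts were deposited by the authors, 1 per library, after alignment and counting with Cell Ranger 3.1.0 to mm10 per the labels; Seurat 3 is also named in the submitters' processing notes. Whether a library was made with the 3′ or the 5′ kit, and whether or how many SI grafts were pooled, is not given in the sources used here. The counts were used as deposited. A barcode needed 500 or more genes and no more than 10% of its UMIs from mitochondrial genes. Classes are gates on the number of markers detected, and cells meeting gates of several lineages (117 LI, 333 SI) were set aside. No doublet caller was run; leaving out the top 5% of cells by UMIs was an alternative. Levels are summed UMIs of a class divided by all UMIs of its cells and scaled to CPM, with exact Poisson 95% intervals; shares have Clopper-Pearson intervals; log2 ratios use a pseudocount of 1 CPM and an exact binomial split. With 1 library per group no p was computed, and called means past 2-fold among genes with at least 10 CPM in either group. The Gbp6 features were summed. For shares, cells were thinned to 2000 UMIs. All 10 members are named, with genes of fixed pathway lists and, from the 10 most similar genes among those with at least 20 CPM, those given in the text; 1 gene of these lists is not reported here. The members, lists and gates were chosen with earlier results of these data known. The scripts were tested on simulated data. Alternatives covered the cell filter, the gates, the sex call, scaling by TMM (edgeR 4.0.16, factors only), thinning, per-cell means and left-out genes. Python 3.11.15 with numpy 2.4.6, scipy 1.17.1, pandas 2.3.3 and matplotlib 3.10.9, and R 4.3.3, were used.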

Additional observations from a re-analysis of the deposited data

Results flagged for a closer look

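Some members went in opposite directions in the LI and SI libraries under the same contrast, and none of these differences was tested, because each direction is 1 library. In male over female pericytes the log2 ratio of Gbp7 was -1.09 in LI and 1.62 in SI. That of Iigp1 was -0.27 and 1.50, and that of Irgm1 was -0.83 and 1.27; the LI values rest on 42 male cells. In PDGFRAhi FB over the other gated stromal cells, Gbp2 stood at 0.61 in LI and -0.27 in SI, and Gbp4 at 0.80 and -0.43. In CD81 FB over the other gated stromal cells, Gbp2 stood at 0.30 and -0.26. In SMC over the other gated stromal cells, Igtp stood at -0.32 in LI and 0.45 in SI.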

How the results depend on the processing

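With 1 library per group, depth and the number of libraries limit what can be said: intervals cover counting error, and the spread between grafts is not known. No paired analysis was possible because each group has 1 library and no replicate numbers. All 10 members stayed lower in LI than in SI fibroblasts under all 110 alternatives (log2 -1.84 to -0.58), and the summed ratio did so under all 15. The summed ratio, -1.18, became -1.13 without the 5% of barcodes with the most UMIs, -1.08 as a mean of per-cell CPM, -1.11 after thinning, -1.27 without Iigp1, -0.86 in female cells, -0.80 in male cells and -0.89 in fibroblasts without class II MHC UMIs. The sum in LI fibroblasts, 764 CPM, became 756 without those barcodes, 751 with classes by z-score, 744 after thinning, 747 without Gbp6 and 420.3 without Iigp1. The sum in SI fibroblasts, 1738 CPM, became 1651 without those barcodes, 1724 by z-score, 1603 per cell, 1610.35 after thinning, 1688 without Gbp6 and 1018 without Iigp1. Male over female kept its direction under all 28 alternatives. In LI fibroblasts, 1.29 became 1.18 without those barcodes, 1.19 per cell, 1.39 with TMM scaling, 1.25 after thinning, 1.24 without Iigp1, 1.20 with 2 UMIs needed for the sex call, 0.93 at 3000 to 8000 UMIs, 1.15 without class II UMIs and 1.23 without pericyte marker UMIs. In SI fibroblasts, 1.22 became 1.08, 1.25 (z-score), 1.06 (per cell), 1.29 (TMM), 1.05 (thinned), 1.33 (without Iigp1), 0.74 and 0.33. The alternatives at 3000 to 8000 UMIs, without pericyte marker UMIs and, for the sexes, without class II UMIs were chosen after seeing the data. Of 142 alternatives for the level of a class against the other stromal cells, 139 kept the direction. SI mixed FB went from 0.022 to -0.17 when 1 more marker was needed, LI CD81 FB from -0.22 to 0.025 likewise, and LI SMC from -0.27 to 0.035 with classes by z-score. The cause of these changes was not tested.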

Other observations

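Among cells outside the stromal comparisons, the 31 mesothelial cells of the LI library held 1541 CPM of the 10 GTPases, with Gbp2 at 432 CPM, above the 1152 CPM of LI pericytes and their 81.9 CPM of Gbp2. The 22 mesothelial cells of the SI library held 1234 CPM, with Gbp2 at 220.1 CPM. The immune cells that passed the sort held 921 CPM in LI (82 cells) and 2756 CPM in SI (67 cells).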
